A study of Mus musculus with 9 samples.

Results

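Plvap encodes plasmalemma vesicle associated protein, which forms the diaphragms of fenestrae and caveolae in endothelium outside the blood-brain barrier. The cells described here were the Plvap-expressing endothelial cells of 3 single-cell libraries from a series labelled as mouse brain regions, called Plvap cells below. They were chosen by their measured counts: a cell entered when it had at least 1 unique molecular identifier (UMI) of Plvap and at least 1 UMI over Flt1, Egfl7 and Esam, which mark endothelium. The gate gave 129 of the 10113 cells of libraries 4, 5 and 6, out of 29571 cells in the series. They were set beside 246 barrier cells of the same libraries, which had no Plvap UMI and at least 2 UMIs over Cldn5, the main claudin of brain endothelial tight junctions, and Slco1a4, an organic anion transporter of the blood-brain barrier. The rule used 6 genes, so their levels describe the gate and support nothing.

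The series holds 9 samples, 1 for each of cortex, hypothalamus and brainstem under normal sleep, sleep deprivation of 12 h and deprivation followed by recovery sleep, for which the labels give both 24 h and 12 h. All were taken at Zeitgeber time 12 from C57BL/6 mice of 9 to 11 weeks, which the study's methods give as male C57BL/6J, and each library pooled the cells of 3 mice. Tissue was dissociated with papain and cleared of myelin with beads. Libraries are numbered by the order in which their codes stand in the deposited table, and neither region nor sleep group was assigned to any of them, so no comparison of sleep groups was made. With no such map the table counts as 1 sample: values are given per library with 95% intervals that cover counting error only, and no test was run. Square brackets after a ratio hold its interval.

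Most brain capillaries are sealed by tight junctions, carry few vesicles and move nutrients through dedicated transporters, a state that depends on Wnt/beta-catenin signalling from the surrounding tissue. Capillaries of the circumventricular organs such as the median eminence, of the choroid plexus and of the pituitary lack this barrier. They are fenestrated, express Plvap and depend on VEGF signalling through Kdr. The data are mRNA counts, so fenestrae themselves were not measured.

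Library 4 held 90 Plvap cells, library 5 held 11 and library 6 held 28. As shares of all cells these were 2.58% (95% exact binomial interval 2.08 to 3.16%), 0.407% (0.203 to 0.726%) and 0.715% (0.476 to 1.03%). The share in library 4 lay above the intervals of both other libraries. Barrier cells numbered 86, 127 and 33 in the same order, so Plvap cells were the larger class in library 4 only. Plvap cells had a median of 810, 544 and 971.5 UMIs per cell in libraries 4, 5 and 6, and barrier cells 665, 481 and 916. The largest barrier cell, in library 6, had 13511 UMIs and weighs on every sum of that class there. Summed over cells, the classes held 84770, 6901 and 28704 UMIs against 79754, 73006 and 49661. One UMI was therefore worth 145 counts per 1000000 UMIs (CPM) in the Plvap cells of library 5, against 11.8 and 34.8 CPM in libraries 4 and 6, and a gene without a UMI there could stand at up to 435 CPM, the level of 3 UMIs. Over all cells, libraries 4 to 6 held between 2121900 and 5488950 UMIs each. Growth hormone (Gh) mRNA made up 25.3 to 32.1% of them, against at most 0.00755% in the other 6 libraries. Hormone cells, with at least 50% of UMIs from Gh and Prl and in neither endothelial class, numbered 3184 of the 10113 cells. The tissue from which the Plvap cells and the barrier cells came was not tested. From 11 to 18 cell barcodes were shared between any pair of the 3 libraries, 1 of them a barcode of a Plvap cell.

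Plvap itself, at chr8:71497765-71511752 on the minus strand of GRCm38, stood at 3019.9, 3188 and 2264 CPM in the Plvap cells of libraries 4, 5 and 6. Of the 129 cells, 42 had 1 Plvap UMI, 36 had 2 and 51 had 3 or more, with 11 as the highest. Egfl7, a secreted endothelial protein, stood at 956, 1304 and 1254 CPM against 426, 726 and 242 CPM in barrier cells, and Flt1, a VEGF receptor, at 814, 725 and 488 against 940.4, 1603 and 866 CPM. Esam, an adhesion molecule of endothelial junctions, stood at 566, 435 and 314 against 326, 534 and 161 CPM. The gate set no limit on barrier genes in Plvap cells, and 113 of the 129 had neither Cldn5 nor Slco1a4, 12 had 1 UMI over both and 4 had 2 or more. Plvap was also counted in microglia, astrocytes and hormone cells of the same libraries, where it is not expected. Cells of both endothelial classes had been left out of these types, so low shares there are in part set by the rule. Among the cells that remained, Plvap was found in 0.820%, 0.533% and 0.534%. These cells had a median of 525.5, 716 and 1229 UMIs per cell, against 812 in Plvap cells.

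Endothelial identity was checked with 19 further pan-endothelial genes, which the gate did not use. All 19 had UMIs in both classes, and their summed level was 1.75 [1.59 to 1.91] times that of barrier cells, with ratios of 1.80, 1.48 and 2.12 in libraries 4, 5 and 6. Pecam1, the adhesion molecule CD31, stood at 283, 435 and 314 CPM in Plvap cells and 326, 438 and 161 CPM in barrier cells, so neither class was higher throughout (ratio 0.917 [0.593 to 1.40]). Cdh5, the cadherin of endothelial junctions, stood at 436, 435 and 453 against 125, 178 and 181 CPM and was higher in Plvap cells in each library (ratio 2.79 [1.76 to 4.46]). Emcn, a sialomucin of capillary and venous endothelium, was higher in each library as well, at 1239, 1304 and 1115 against 163, 274 and 222 CPM (ratio 5.58 [3.96 to 8.01]). S1pr1, Ptprb and Ramp2 went the other way, with ratios of 0.619 [0.417 to 0.901], 0.673 [0.459 to 0.971] and 0.669 [0.495 to 0.894]. Of the 19 genes, 10 had an interval above 1, 3 had one below 1 and 6 had one that included 1. Over all 2590 genes with at least 20 UMIs, 10.9% lay above 1 and 12.4% below it. The gate asked for an endothelial UMI in Plvap cells only, and a ratio to barrier endothelium does not set cells apart from other types. Summed, the 19 genes stood at 7850 CPM in Plvap cells and 4496 CPM in barrier cells. Of this, Kdr and Emcn gave 1454 and 1213 CPM in Plvap cells and 79.0 and 217 CPM in barrier cells. The summed ratio thus leans on these genes and is not a rise of the list as a whole. All 19 together stood at 329 CPM in microglia, 213 CPM in astrocytes and 28.7 CPM in hormone cells. Cells of both endothelial classes had been left out of these types, which lowers their levels in part.

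Across genes, a call required at least 10 UMIs over both classes in each library and a ratio of at least 2 on the CPM + 50 scale, in the same direction in all 3 libraries. Of 971 genes tested, 27 were higher in Plvap cells (2.78%) and 35 were lower (3.6%). The median log2 ratio over the tested genes was 0.00, -0.23 and -0.01 in libraries 4, 5 and 6. Called genes had to pass a filter on their level. A gene at 0 in the Plvap cells of library 5 could be called lower there on no UMI at all. The counts therefore describe these libraries. The rule also favours genes whose library values do not overlap between the classes, so a lack of overlap in a called gene is a description. The share of such genes among all tested was not counted. A looser description took all 2590 genes with at least 20 UMIs over both classes, of which 10.9% had a ratio with its whole interval above 1 and 12.4% had one below 1. That minimum is summed over both classes, so a gene can reach it through the class where it is high alone, and the counts and medians over genes that reached it are descriptions of these genes and no support for a list.

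Genes of fenestrated or peripheral capillaries had the highest summed ratio among the lists with at least 3 genes of 20 UMIs. Of 15 such genes beside Plvap, 10 had at least 20 UMIs, several of them nearly all in Plvap cells, and the interval of their ratios lay above 1. The other 5 were low or absent in both classes. The 4 that could be tested, Plpp1, Igfbp3, Rgcc and Nrp1, were all called higher. Summed over all 15 genes, the list was 9.67 [8.38 to 11.2] times as high in Plvap cells as in barrier cells, with 11.1, 7.99 and 10.4 in the 3 libraries.

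Plpp1, a membrane phosphatase of bioactive lipids, stood at 1639.7, 1304 and 1219 CPM in the Plvap cells of libraries 4, 5 and 6 and at 75.2, 13.7 and 0 CPM in barrier cells. Every library of Plvap cells was above every library of barrier cells, and the summed ratio was 44.0 [20.9 to 111]. Igfbp3, a secreted binding protein of insulin-like growth factors, stood at 1923, 2174 and 1324 against 75.2, 82.2 and 60.4 CPM (ratio 24.2 [14.4 to 44.0]), again without overlap. Rgcc, a regulator of the cell cycle, was present in both classes at 3905, 4927 and 3588 against 577, 931 and 463 CPM, so its ratio of 5.74 [4.74 to 7.0] was smaller than that of Plpp1 or Igfbp3. Nrp1, a co-receptor for VEGF and semaphorins, stood at 873, 579.6 and 941 against 113, 151 and 101 CPM (ratio 7.06 [4.53 to 11.4]). Fabp4, a fatty acid carrier of peripheral capillaries, had 99 UMIs against 7 (ratio 23.8 [11.1 to 60.7]), and Gpihbp1, which anchors lipoprotein lipase to capillaries, had 40 against 3 (ratio 22.4 [7.14 to 113]). Neither gene of lipid handling reached 10 UMIs in library 5, so neither could be called. Exoc3l2, a homologue of an exocyst subunit, had 57 UMIs in Plvap cells and none in barrier cells, which made it at least 32.0-fold higher with 3 UMIs over the barrier class as the floor. Meox1, a homeobox factor, had 13 and none (at least 7.29-fold higher), and Aplnr, the apelin receptor, had 19 and 2 (ratio 16.0 [3.85 to 141]). Plpp3, a relative of Plpp1, had 65 and 20 (ratio 5.47 [3.27 to 9.53]). Cd300lg had 6 UMIs in Plvap cells and none in barrier cells, Cd36 had none in either class, and Aqp1 and Exoc3l had 3 or fewer in all, so not every gene of peripheral capillaries was found.

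The classes were also apart in the share of cells with a UMI. Igfbp3 was found in 82 of 129 (63.6%, 54.6 to 71.9%) Plvap cells and 9 of 246 (3.66%, 1.69 to 6.83%) barrier cells. For Plpp1 the counts were 92 of 129 (71.3%, 62.7 to 78.9%) and 7 of 246 (2.85%, 1.15 to 5.77%), for Kdr 89 of 129 (69.0%, 60.3 to 76.8%) and 14 of 246 (5.69%, 3.15 to 9.36%), and for Rgcc 119 of 129 (92.2%, 86.2 to 96.2%) and 96 of 246 (39.0%, 32.9 to 45.4%). In hormone cells the 4 genes were found in 0.126% (Igfbp3) to 1.07% (Rgcc) of cells, and Rgcc was found in 15.2% of astrocytes. Plpp1 was also found in 3.28% of microglia and 3.73% of astrocytes, so its share in barrier cells did not exceed that background. After each cell was thinned to 500 UMIs, which left out 13 Plvap cells and 83 barrier cells, the shares were 44.8% against 3.07% for Igfbp3, 53.4% against 1.84% for Plpp1 and 43.1% against 4.91% for Kdr. Counted per cell, 97 of 129 Plvap cells had at least 3 of Igfbp3, Plpp1, Rgcc and Kdr, against 2 of 246 barrier cells. None of them was found in 1 Plvap cell. Genes that are each found in most Plvap cells meet in many of them by their shares alone. These counts therefore restate the shares and do not show that the genes go together.

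**Figure D1:**
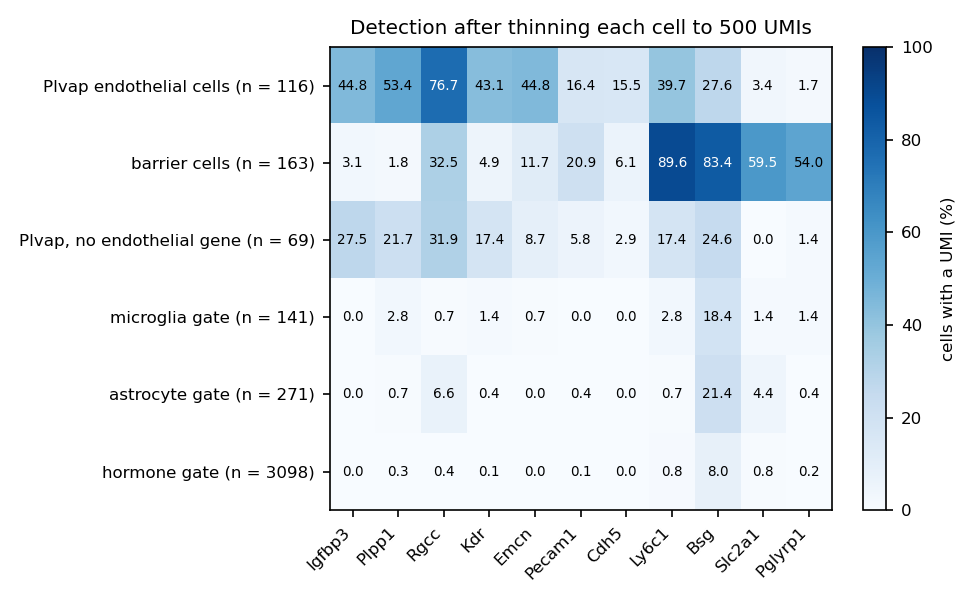
Share of cells with at least 1 UMI of each gene (colour scale and printed values, %) after each cell was thinned to 500 UMIs, for 6 classes of cells of libraries 4 to 6. Igfbp3, Plpp1, Rgcc, Kdr and Emcn were most often found in Plvap cells, and Ly6c1, Bsg, Slc2a1 and Pglyrp1 in barrier cells, while Bsg was also found in 18.4% of microglia.

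The VEGF system differed gene by gene. Kdr, the main signalling receptor for VEGF-A, stood at 1699, 1159 and 801 CPM in Plvap cells and 62.7, 68.5 and 121 CPM in barrier cells, with the lowest library of Plvap cells above the highest of barrier cells and a ratio of 18.4 [11.0 to 32.9]. Nrp2, a further co-receptor, had 26 UMIs against 7 (ratio 6.25 [2.64 to 17.0]), and Flt4, the receptor for VEGF-C, had 14 against 2 (ratio 11.8 [2.70 to 107]). Ramp3, a partner of the calcitonin receptor-like receptor, was higher at 259.5, 435 and 209 against 37.6, 0 and 20.1 CPM (ratio 13.0 [4.61 to 50.8]), whereas its relative Ramp2 was lower (above). Tie1 and Eng, an endothelial receptor kinase and a TGF-beta co-receptor, had ratios of 2.45 [1.42 to 4.31] and 2.09 [1.41 to 3.11]. Tek, the angiopoietin receptor, and Bmpr2, a BMP receptor, had ratios of 0.992 [0.565 to 1.70] and 1.02 [0.554 to 1.83], both with 1 inside the interval. Acvrl1, the type I receptor that pairs with Eng, was called lower, with 9 UMIs against 57 (3.77 [1.85 to 8.65] times as high in barrier cells). In all, 7 of the 24 other genes of the list were tested, Kdr and Nrp1 were called higher and Acvrl1 lower. The summed level was 2.23 [1.99 to 2.51] times that of barrier cells (2.34, 1.44 and 2.39 in libraries 4, 5 and 6). Kdr and Nrp1 gave 1454 and 872 of its 5549 CPM in Plvap cells, so it leans on them. Kdr, Tek, Tie1, Eng and Ramp2 are also in the pan-endothelial list, and Nrp1 and Aplnr in the fenestrated list. The sums of these lists therefore share UMIs and are not separate results. The ligands Vegfa and Pgf had 3 UMIs or fewer in all.

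Caveolae, which Plvap can also cover, were described with 8 genes. Ehd4, an ATPase of membrane trafficking, was called higher at 779, 725 and 523 against 62.7, 95.9 and 40.3 CPM (ratio 10.3 [5.83 to 19.7]). Prkcdbp, the gene of cavin-3, had 120 UMIs against 41 (ratio 4.92 [3.43 to 7.20]) but was not called, since in library 5 it stood at 289.8 against 205 CPM. Cav1, the main structural protein of caveolae, was lower, at 47.2, 0 and 34.8 against 288, 137 and 101 CPM, or 4.52 [1.78 to 14.7] times as high in barrier cells. Sdpr (cavin-2), Ptrf (cavin-1) and Cav2 had ratios of 0.857 [0.606 to 1.20], 0.814 [0.408 to 1.55] and 0.914 [0.538 to 1.52]. The list pointed in both directions, with Ehd4 and Prkcdbp above 1, Cav1 below it and a summed ratio of 1.79 [1.52 to 2.10].

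The barrier cells were chosen for Cldn5 and Slco1a4, so high levels there of genes that go with these are a description of that choice. Of 21 other transporters of the barrier, 14 had at least 20 UMIs. The interval lay below 1 for 12 of these and above 1 for none. Summed, the list was 4.24 [3.64 to 4.98] times as high in barrier cells, and the ratio of Plvap cells to barrier cells was 0.281, 0.0173 and 0.258 in libraries 4, 5 and 6, of which the value in library 5 rested on 1 UMI. The summed ratio of 0.236 became 0.125 without library 4 and 0.108 with the libraries weighted equally. The median log2 ratio was -1.87. Slc2a1, the glucose transporter GLUT1 of the barrier, stood at 118, 0 and 0 CPM in Plvap cells and 1655, 2123 and 604 CPM in barrier cells (18.9 [10.1 to 39.7] times as high there). It was found in 6 of 129 (4.65%, 1.73 to 9.85%) Plvap cells and 171 of 246 (69.5%, 63.3 to 75.2%) barrier cells, and in 2.05% of microglia and 12.0% of astrocytes. Its share in Plvap cells thus lay within the range of cells of other types.

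Abcb1a, the efflux pump P-glycoprotein, stood at 82.6, 0 and 69.7 against 789.9, 904 and 624 CPM (10.6 [5.43 to 23.5] times as high in barrier cells), and Slc6a6, the taurine transporter, at 129.8, 0 and 69.7 against 727, 739.7 and 705 CPM (6.72 [3.81 to 12.9]). Both were called lower. Slco1c1, a thyroid hormone transporter, had no UMI in Plvap cells and 69 in barrier cells, which made it at least 13.7-fold lower with 3 UMIs over the Plvap class as the floor. With the same floor Slc38a5, an amino acid transporter, and Slc40a1, the iron exporter, were each at least 6.74-fold lower, Tfrc, the transferrin receptor, at least 5.55-fold, and Mfsd2a, a lipid transporter that limits transcytosis and had 17 UMIs in barrier cells, at least 3.37-fold. Slc7a5 and Slc3a2, the chains of a large amino acid transporter, were 4.68 [2.24 to 11.3] and 1.83 [1.24 to 2.77] times as high in barrier cells. In 2 of the 14 the interval included 1. Abcg2, a further efflux pump, stood at 838, 0 and 523 CPM against 727, 904 and 564 CPM, with no UMI among the 11 Plvap cells of library 5 (ratio 0.951 [0.722 to 1.25]), and Atp10a, a lipid flippase, had 4 UMIs against 19 (barrier over Plvap cells 2.82 [0.939 to 11.4]).

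Junction genes beside Cldn5 were fewer and shallower. Ocln, which encodes occludin, and Lsr, which encodes a protein of tricellular junctions, had no UMI in Plvap cells against 46 and 40 in barrier cells, and were at least 9.12-fold and 7.93-fold lower. Tjp1, the scaffold ZO-1, had 17 UMIs against 86 and Jam2 had 9 against 38, or 3.01 [1.77 to 5.40] and 2.51 [1.19 to 5.91] times as high in barrier cells. F11r (JAM-A) did not separate the classes, with 15 and 27 UMIs and a ratio of 0.934 [0.462 to 1.82]. Neither of the 2 junction genes with enough UMIs in each library was called.

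Among other genes of barrier endothelium, 5 of 11 tested were called lower. Pglyrp1, a peptidoglycan recognition protein, stood at 35.4, 0 and 34.8 against 1906, 3274 and 1047 CPM, Spock2, a matrix proteoglycan, at 11.8, 0 and 34.8 against 890.2, 1178 and 544 CPM, and Bsg (basigin) at 661, 435 and 523 against 6345, 5986 and 3806 CPM. All libraries of Plvap cells lay below all libraries of barrier cells for these genes. Bsg was found in 38.0% of Plvap cells but also in 43.7% of astrocytes and 22.5% of microglia, so its remaining level was not particular to endothelium. Ly6c1 stayed detectable at 897, 1594 and 836 CPM against 4714, 7342 and 2437 CPM (5.53 [4.55 to 6.79] times as high in barrier cells), in 55.8% of Plvap cells and 2.87% of microglia. Cxcl12, a chemokine, had 1 UMI against 78 (46.4 [8.08 to 1855]). Itm2a, Ly6a and Pltp were 2.44 [2.07 to 2.89], 3.04 [2.50 to 3.71] and 2.98 [2.23 to 4.06] times as high in barrier cells. Ctla2a alone of this list was higher in Plvap cells (ratio 1.36 [1.06 to 1.75]), while Slc9a3r2, Hspb1 and Vtn had intervals that included 1.

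**Figure D2:**
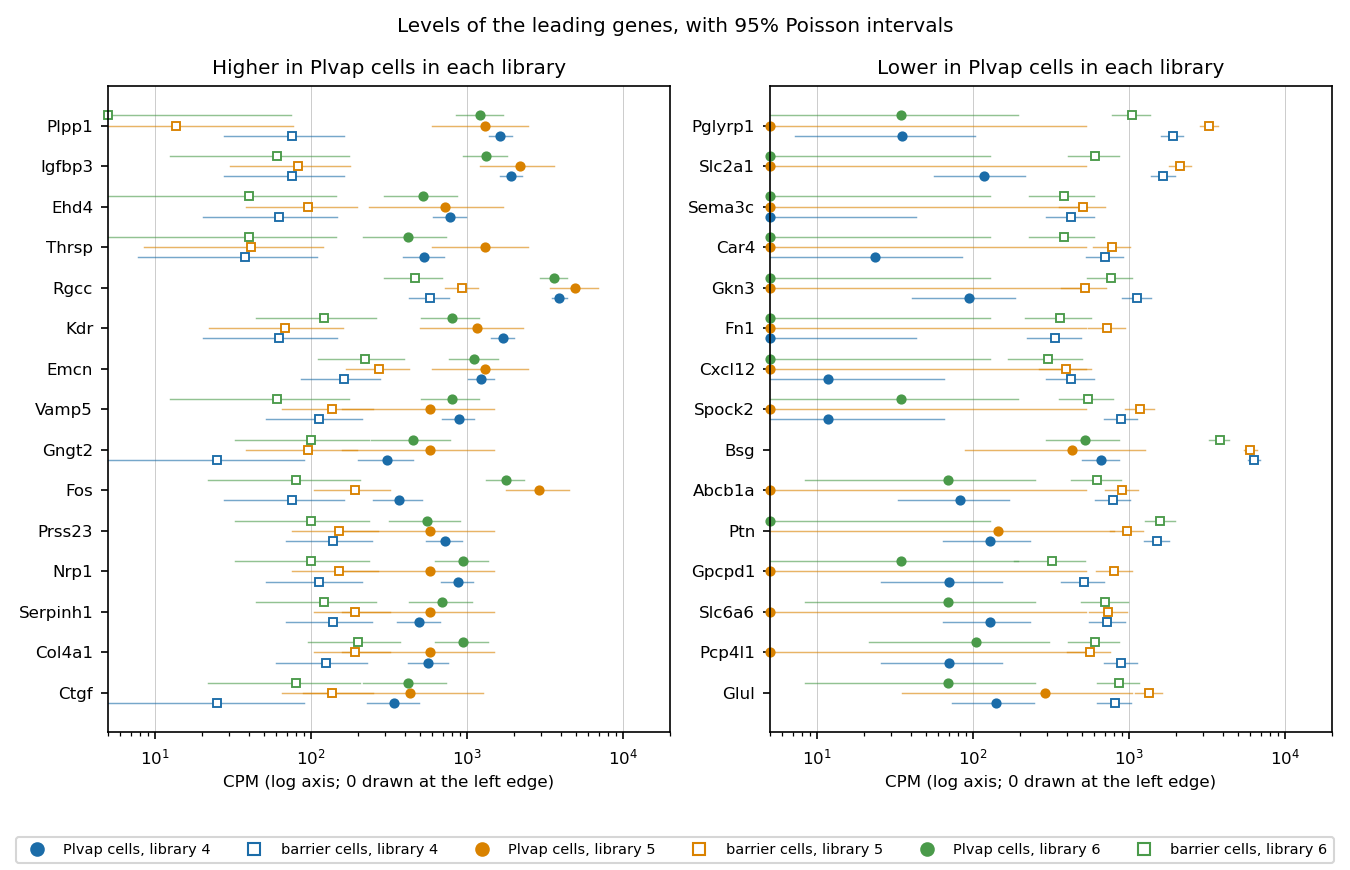
CPM (log axis) of the 15 genes whose ratio was farthest from 1 in the library where it was nearest to 1, in each direction, in Plvap cells (filled circles) and barrier cells (open squares) of each library, with 95% Poisson intervals as lines and values of 0 drawn at the left edge. Plpp1 and Igfbp3 lead the higher genes, and Pglyrp1 and Slc2a1 lead the lower genes. The genes were chosen by these same values, so the gaps between classes are descriptions.

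Wnt receptors and targets were measured at low depth. The receptor genes Fzd4 and Tspan12 and the effector Ctnnb1 had ratios of 0.994 [0.460 to 2.06], 1.31 [0.703 to 2.40] and 1.23 [0.770 to 1.94]. Other receptors and co-receptors were sparser: Fzd6, Adgra2 and Reck had no UMI in Plvap cells against 10, 6 and 6, and Lrp6 had 6 against 16. The transcription factors Lef1 and Foxq1 were lower: Lef1 had 2 UMIs against 27 (8.03 [2.02 to 69.7] times as high in barrier cells) and Foxq1 had 1 against 41 (24.4 [4.14 to 986]). Nkd1, a feedback inhibitor of the pathway, had 1 against 24 (14.3 [2.33 to 587]), and Sox17, an endothelial factor downstream of it, had 6 against 61 (6.05 [2.62 to 17.1]). Of 9 genes with at least 20 UMIs, 5 had an interval below 1 and none above 1, and none of the 3 tested in every library was called. Axin2, with 1 and 11 UMIs, was too shallow to separate the classes (barrier over Plvap cells 6.54 [0.951 to 282]).

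Promoters of 4 called genes are shown because ETS factors bind many endothelial promoters and TCF/LEF factors carry the Wnt signal. They are RefSeq windows on GRCm38.p6 from 250 bases before to 50 after the start, read 5′ to 3′ along the gene, with the ETS letters AGGAAG or CTTCCT in capitals. The genes were picked after their values were seen, 2 from the higher and 2 from the lower genes. Kdr at chr5:75978406-75978705, minus strand, and Emcn at chr3:137340828-137341127, plus strand, were higher in Plvap cells; Slc2a1 at chr4:119108495-119108794 and Pglyrp1 at chr7:18884440-18884739, both plus strand, were lower.
Kdr: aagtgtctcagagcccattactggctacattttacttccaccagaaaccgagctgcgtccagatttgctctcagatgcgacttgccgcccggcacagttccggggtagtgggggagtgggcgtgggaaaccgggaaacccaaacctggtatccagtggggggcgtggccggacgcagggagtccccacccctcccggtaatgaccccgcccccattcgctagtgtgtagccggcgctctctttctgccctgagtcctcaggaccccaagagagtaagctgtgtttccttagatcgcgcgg
Emcn: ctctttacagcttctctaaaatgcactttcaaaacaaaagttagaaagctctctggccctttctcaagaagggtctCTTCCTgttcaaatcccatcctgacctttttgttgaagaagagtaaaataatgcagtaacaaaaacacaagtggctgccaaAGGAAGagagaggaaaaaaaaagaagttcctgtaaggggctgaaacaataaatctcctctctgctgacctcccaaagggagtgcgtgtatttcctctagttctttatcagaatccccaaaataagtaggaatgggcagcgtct
Slc2a1: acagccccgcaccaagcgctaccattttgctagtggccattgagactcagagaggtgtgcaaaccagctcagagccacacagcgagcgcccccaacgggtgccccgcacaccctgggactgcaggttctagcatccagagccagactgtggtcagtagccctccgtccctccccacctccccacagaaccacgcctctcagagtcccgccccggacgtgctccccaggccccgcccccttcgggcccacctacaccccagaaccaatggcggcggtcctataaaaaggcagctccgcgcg
Pglyrp1: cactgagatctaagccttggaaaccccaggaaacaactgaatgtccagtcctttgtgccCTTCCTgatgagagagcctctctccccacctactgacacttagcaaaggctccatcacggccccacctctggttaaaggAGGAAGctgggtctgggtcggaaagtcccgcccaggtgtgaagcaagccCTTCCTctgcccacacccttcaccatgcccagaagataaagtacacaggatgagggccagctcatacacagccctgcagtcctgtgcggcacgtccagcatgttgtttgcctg
The ETS letters occurred 2 times in the Emcn window, 3 times in that of Pglyrp1 and in neither of the others. The TCF/LEF core CTTTGA, or TCAAAG on the other strand, was in none of the 4. Of the 27 higher genes 21 had windows in the table, and of the 35 lower genes 25 did. The TCF/LEF letters stood in 3 of 31 (9.68%) windows of higher genes, 5 of 32 (15.6%) of lower genes and 16.0% of all windows, and the ETS letters in 13 of 31 (41.9%), 9 of 32 (28.1%) and 35.4%. A match is a run of letters and not a site, and its absence says only that these letters are not in this window.

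Genes of the basement membrane and matrix were higher and lower, with a summed ratio of 1.42 [1.26 to 1.59] and ratios of 1.57, 1.00 and 2.11 in libraries 4, 5 and 6. Of 5 tested, Col4a1 was called higher and Fn1 and Sparcl1 lower. Col4a1 and Col4a2, the chains of type IV collagen, stood at 566, 579.6 and 941 against 125, 192 and 201 CPM and 319, 435 and 592 against 87.8, 205 and 60.4 CPM (ratios 3.91 [2.58 to 6.03] and 3.16 [1.91 to 5.36]), and Serpinh1, a collagen chaperone, at 495, 579.6 and 697 against 138, 192 and 121 CPM. Sparc, a matrix glycoprotein, was higher in each library, at 2359, 2029 and 2613 against 1166, 1507 and 866 CPM (ratio 1.98 [1.66 to 2.35]). Hspg2 (perlecan), Nid1 and Bgn had ratios of 3.99 [1.67 to 10.5], 3.60 [1.38 to 10.4] and 5.33 [2.04 to 16.3] on at most 19 UMIs each in Plvap cells. Col15a1 had 12 UMIs and none in barrier cells (at least 6.73-fold higher). Against this, Fn1 (fibronectin) had none and 98 (at least 19.4-fold lower), and Sparcl1 and Lamb2 were 3.29 [2.22 to 5.03] and 2.87 [1.17 to 8.47] times as high in barrier cells. Of 9 genes with at least 20 UMIs, 6 lay above 1 and 3 below it, so the list had no single direction.

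Markers of arteries with at least 20 UMIs were lower than in barrier cells, but not all were near 0. Mgp, summed over libraries, stood at 299 against 820 CPM and was found in 22 of 129 (17.1%) Plvap cells. Gkn3 stood at 94.4, 0 and 0 against 1128, 521 and 765 CPM, Bmx, an arterial kinase, had no UMI against 25 (at least 4.96-fold lower), and Jag1, a Notch ligand, had 1 against 30. The 4 arterial genes with at least 20 UMIs all lay below 1, while Efnb2, with 7 UMIs against 2, and Fbln5, with 7 against 6, had ratios of 5.89 [1.12 to 58.1] and 1.96 [0.565 to 7.07]. The list was 4.09 [3.12 to 5.45] times as high in barrier cells. Venous genes were split: Nr2f2 (COUP-TFII), the factor of venous identity, was higher at 248, 289.8 and 314 against 75.2, 82.2 and 121 CPM (ratio 2.99 [1.63 to 5.66]), while Vwf had 1 UMI against 46, Vcam1 3 against 57, and Tmem252 and Lcn2 none against 36 and 26. Selp and Sele could not be matched and were not analysed here.

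The summed level of endothelial transcription factors was 1.01 [0.926 to 1.11] times that of barrier cells, but 1.07, 0.943 and 1.60 in libraries 4, 5 and 6, with the interval above 1 in library 6 (1.33 to 1.93). There were 5 genes above and 6 below among 15 with at least 20 UMIs. Meis2, a homeobox factor, stood at 1073, 579.6 and 906 CPM in Plvap cells against 25.1, 0 and 40.3 CPM (ratio 50.9 [19.4 to 189.7]). It was found in 72 of 129 (55.8%, 46.8 to 64.5%) Plvap cells, 4 of 246 (1.63%, 0.445 to 4.11%) barrier cells and 4.53% of astrocytes, but fell short of 10 UMIs in library 5. Sox18 and Ets2 were higher (ratios 2.18 [1.36 to 3.51] and 5.04 [1.74 to 17.7]). Mecom was called lower, with 4 UMIs against 72, and Epas1 (HIF-2 alpha), Id1, Klf4 and Gata2 were 2.48 [1.70 to 3.73], 2.27 [1.66 to 3.16], 2.38 [1.31 to 4.63] and 2.63 [1.14 to 7.09] times as high in barrier cells. Klf2, which responds to flow, stood at 1439, 4057 and 3344 against 1680.2, 2849 and 1309 CPM, lower in library 4 and higher in libraries 5 and 6, with a summed ratio of 1.02 [0.864 to 1.19].

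Genes of class I antigen presentation had a higher summed level in Plvap cells, at 2.73, 1.82 and 3.43 times the barrier cells in libraries 4, 5 and 6. B2m, the light chain of class I molecules, stood at 5273, 2608 and 4703 against 1693, 1863 and 987 CPM, H2-D1 at 2336, 1449 and 1637 against 1053, 753 and 624 CPM and H2-K1 at 1109, 1159 and 697 against 226, 233 and 282 CPM, and each library of Plvap cells was above its own barrier cells. Of 9 genes with at least 20 UMIs, 7 lay above 1 and none below it, with a median log2 ratio of 1.29 and a summed ratio of 2.93 [2.66 to 3.23]. B2m alone gave 4984 of the 9495 CPM of the list in Plvap cells. Of the 4 genes tested, only H2-K1 met the 2-fold rule in all 3 libraries. The microglia or macrophage list also had its lowest ratio in library 5 (0.588) and its highest in library 6 (3.03). Its part in these values was not tested. H2-Q4, H2-Q7 and H2-K1 are close relatives, and reads may be divided between them, so their single values are uncertain. Psmb8, an immunoproteasome subunit, had 30 UMIs against 13 (ratio 3.88 [1.96 to 8.11]).

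Immediate early genes, listed together with heat shock genes, differed between libraries. Fos stood at 366, 2898 and 1777 CPM in the Plvap cells of libraries 4, 5 and 6 and at 75.2, 192 and 80.5 CPM in barrier cells, and Junb at 236, 1159 and 871 against 62.7, 397 and 161 CPM. Plvap cells of library 4 were lowest for both genes, yet above the barrier cells of that library. The summed ratio of the 13 immediate early and heat shock genes was 1.41, 3.88 and 5.46, and 2.10 [1.83 to 2.41] over all 3. Fos was found in 25.6% of Plvap cells, 23.8% of microglia, 23.5% of astrocytes and 22.1% of hormone cells, against 5.69% of barrier cells, so barrier cells were the class with the low share. Junb was called higher as well.

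The remaining genes among the 15 leading higher ones were Thrsp, a regulator of lipid synthesis (531, 1304 and 418 against 37.6, 41.1 and 40.3 CPM), Vamp5, a SNARE protein (ratio 7.80 [4.88 to 13.0]), Gngt2, a G protein gamma subunit (5.16 [2.77 to 10.2]), Prss23, a secreted protease (5.04 [3.23 to 8.11]), and Ctgf, a matricellular protein (4.62 [2.56 to 8.78]). Among the 15 leading lower ones were Sema3c, a semaphorin, with no UMI against 90 (at least 17.8-fold lower), Car4, a carbonic anhydrase, with 2 against 132, and Ptn, the growth factor pleiotrophin, with 12 against 270. Glul (glutamine synthetase), Pcp4l1 and Gpcpd1 were 7.66 [4.60 to 13.6], 9.38 [4.81 to 20.9] and 9.85 [4.63 to 25.1] times as high in barrier cells. Glul and Ptn are also expressed by astrocytes. Of the calls left to their lists, Hbb-bs, a hemoglobin chain, was higher and Cga, the shared chain of pituitary glycoprotein hormones, was lower.

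**Figure D3:**
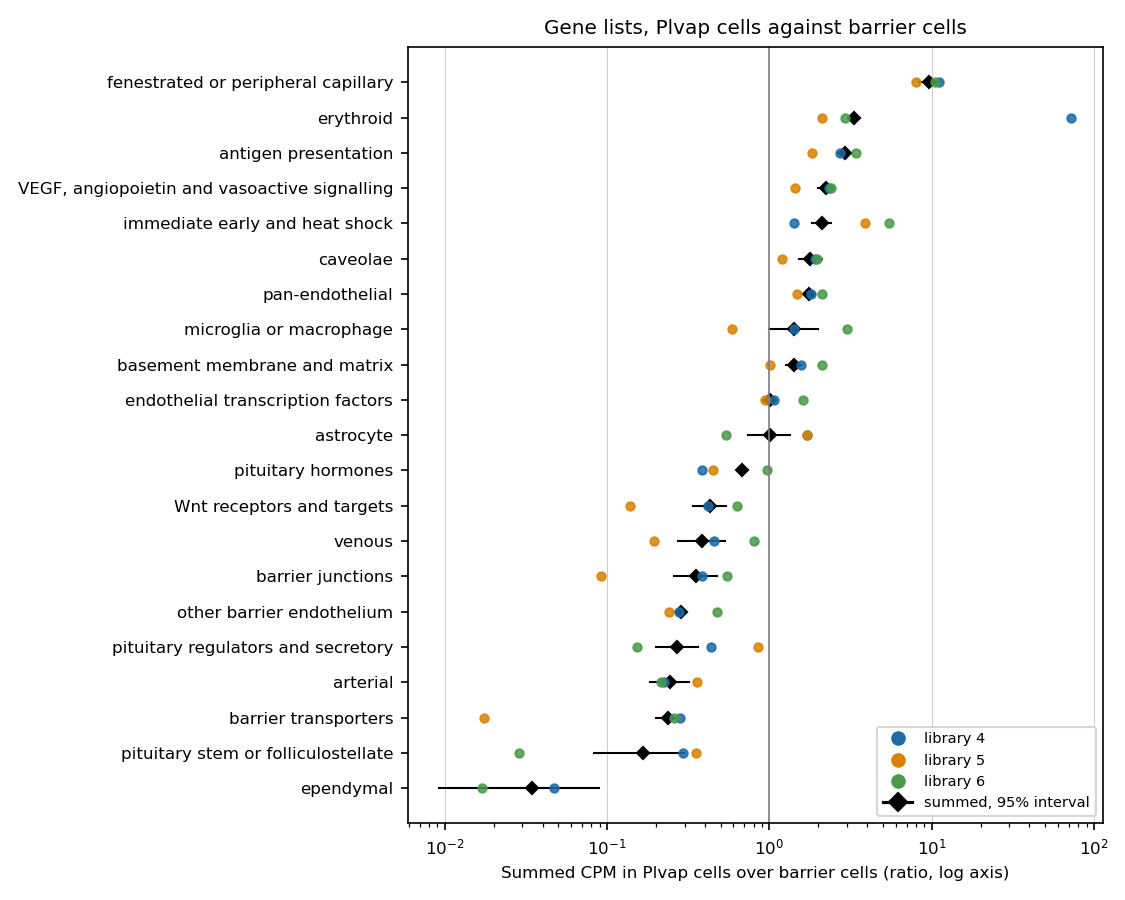
Ratio of summed CPM in Plvap cells to barrier cells (log axis) for each gene list with at least 3 genes of 20 UMIs or more, per library (coloured circles; a ratio of 0 is not drawn) and summed (black diamonds with 95% intervals). Fenestrated or peripheral capillary genes lie at 9.67 and barrier transporters at 0.236, and the erythroid list spreads from 2.12 to 72.5 between libraries.

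Markers of other cell types were given for both classes because droplets hold free RNA and a barcode can hold more than 1 cell. The 7 pituitary hormone genes made up a median of 0.892% of UMIs in Plvap cells and 0.714% in barrier cells, with 7 and 15 cells above 5% and 0 and 4 above 50%, and their summed ratio was 0.387, 0.447 and 0.964 in libraries 4, 5 and 6. Regulators of pituitary hormone cells were lower in sum (0.271 [0.201 to 0.361] times the barrier cells), with 0.436, 0.853 and 0.152 in libraries 4, 5 and 6. The interval in library 5 included 1 (0.268 to 2.10), and library 6 held 216 of the 347 barrier UMIs. Ependymal genes were nearly absent from Plvap cells, with 4 UMIs against 196, and Tmem212, Ccdc153 and Dynlrb2 were at 0. Pericyte, astrocyte and neuron lists had summed ratios of 1.05 [0.753 to 1.45], 1.00 [0.742 to 1.35] and 1.05 [0.852 to 1.30], but each differed between libraries. In libraries 4, 5 and 6 the ratio was 0.620, 1.13 and 4.13 for pericyte genes, 1.69, 1.71 and 0.541 for astrocyte genes and 0.636, 4.92 and 1.08 for neuron genes. The intervals lay above 1 for pericyte genes in library 6, astrocyte genes in library 4 and neuron genes in library 5, and below 1 for neuron genes in library 4. Meg3 alone gave 126 and 190 of the 149 and 238 neuron UMIs. Smooth muscle and fibroblast lists were at 0.198 [0.0916 to 0.382] and 0.315 [0.169 to 0.552], and both differed between libraries. In libraries 4, 5 and 6 the ratio was 0.139, 0.814 and 0.273 for smooth muscle genes and 0.941, 0.392 and 0 for fibroblast genes. The microglia or macrophage list was at 1.42 [0.999 to 2.00], with 1.41, 0.588 and 3.03 in the 3 libraries. The pituitary stem or folliculostellate list was at 0.165 [0.0832 to 0.300], with 0.294, 0.353 and 0.0288 in libraries 4, 5 and 6. The values in libraries 5 and 6 each rested on 1 UMI in Plvap cells. Tanycyte or pituicyte genes gave 2 UMIs against 7 and choroid plexus genes 1 against 1. Oligodendrocyte genes gave 1 UMI in Plvap cells and lymphocyte or neutrophil genes none. Hemoglobin took 3.17% of UMIs in Plvap cells and 0.959% in barrier cells, yet 103 of 129 and 206 of 246 cells had none, and 8 and 5 cells were above 5%. The erythroid list ratio was 72.5, 2.12 and 2.91 in the 3 libraries, and without cells above 5% hemoglobin the summed ratio was 0.508. Mitochondrial genes took 3.04% and 4.35% of UMIs. The part of these differences in the endothelial results was not tested.

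Within the Plvap cells, the levels of the leading genes were compared between cells with different Plvap counts. In cells with 1, 2 and at least 3 Plvap UMIs, Igfbp3 stood at 1634 CPM (1241 to 2113), 2279.7 CPM (1799 to 2849) and 1585 CPM (1259 to 1969.9). Plpp1 stood at 1606 CPM (1216 to 2081), 1303 CPM (947 to 1749) and 1604 CPM (1276 to 1992), and Kdr at 1212 CPM (877 to 1632), 1628 CPM (1227 to 2119.6) and 1507 CPM (1189 to 1883). Ehd4 had the order of the Plvap count, with 592 CPM (366 to 904), 681 CPM (432 to 1022) and 822 CPM (592 to 1111). The intervals overlapped between the 3 groups for each of these genes. The share of cells with Rgcc was 85.7%, 94.4% and 96.1%, and that with Plpp1 66.7%, 69.4% and 76.5%, again with overlapping intervals. Between cells with 1 UMI over Flt1, Egfl7 and Esam and those with at least 2, Rgcc stood at 3999 CPM (3429 to 4638) and 3824 CPM (3399 to 4288), Igfbp3 at 2079.6 CPM (1674 to 2553) and 1631 CPM (1358 to 1944), and Kdr at 1188 CPM (888 to 1558) and 1605 CPM (1334 to 1915). Nrp1 stood at 663 CPM (444 to 952) and 992 CPM (782 to 1242). In each of these genes both intervals overlapped. Of the 4 Plvap cells with at least 2 UMIs over Cldn5 and Slco1a4, 4 had Rgcc, 3 had Igfbp3 and 3 had Plpp1, at a median of 1810 UMIs per cell.

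Just outside the gate were 85 cells with Plvap but no UMI of Flt1, Egfl7 or Esam. In the 25 of them with at least 2 Plvap UMIs, Igfbp3 stood at 1757 CPM (1217 to 2455), Rgcc at 3358 CPM (2592 to 4280.4), Kdr at 827 CPM (473 to 1342) and Emcn at 568 CPM (284 to 1017). Igfbp3 lay among the values of the Plvap cells given by their Plvap count. Rgcc, Kdr and Emcn lay below all 3 of theirs (3550.2 to 4293 CPM for Rgcc and 1155 to 1332 CPM for Emcn), with overlapping intervals. Ehd4 and Nrp1 stood at 155 CPM (32.0 to 453) and 413 CPM (178 to 814) in the 25. The Ehd4 interval lay below that of Plvap cells with at least 3 Plvap UMIs (592 to 1111). That of Nrp1 lay below that of Plvap cells with 2 (821 to 1578). Their intervals overlapped those of the other Plvap counts. In the 60 with 1 Plvap UMI, Igfbp3 and Rgcc stood at 296 CPM (193 to 433) and 603 CPM (452 to 789). Gh took 214074 CPM in those 60 cells and 147507 CPM in the 25. It took 20878 CPM in Plvap cells with 1 Plvap UMI, 48733 CPM in those with 2 and 16084 CPM in those with at least 3. These values are pooled over cells. Per cell, the median share of pituitary hormone UMIs was 1.79% in the 85 cells and 0.892% in Plvap cells. The share was above 50% in 17 of the 85 cells and in 0 Plvap cells. On the other side, 163 cells without Plvap had 1 UMI over Cldn5 and Slco1a4 and fell short of the barrier gate, and 182 of the 246 barrier cells had at least 1 UMI of Flt1, Egfl7 or Esam.

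**Figure D4:**
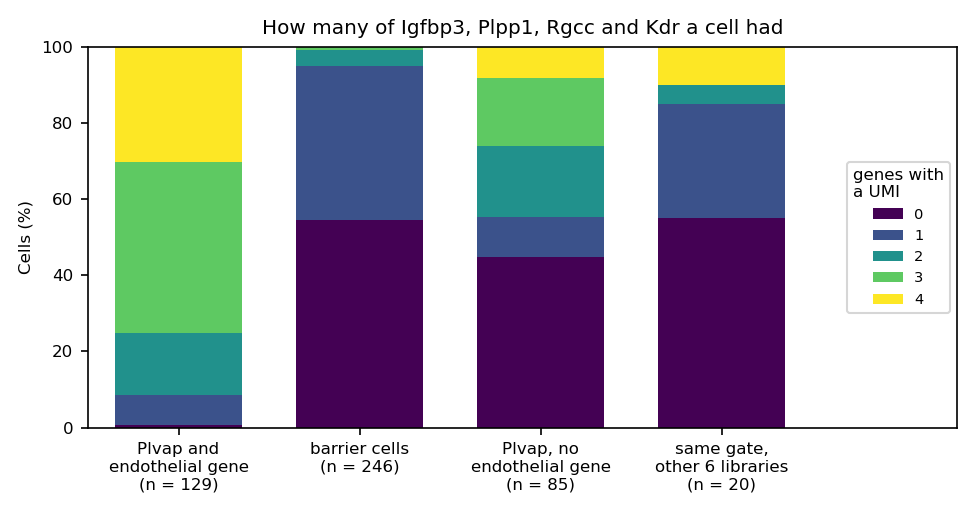
Share of cells (%, stacked bars, starting at 0) with a UMI of 0 to 4 of the genes Igfbp3, Plpp1, Rgcc and Kdr, in Plvap cells, barrier cells, Plvap cells without an endothelial gene, and cells passing the same gate in the other 6 libraries. Of the Plvap cells 39 had all 4 genes, against 0 barrier cells, 7 of 85 cells outside the gate and 2 of 20 cells of the other libraries.

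The same gate applied to the other 6 libraries gave 20 of 19458 cells (0.103%, 0.0628 to 0.159%), although these held 3110 barrier cells. Libraries 3 and 9 held 7 and 9 of them and libraries 1 and 8 held none. Plvap never exceeded 2 UMIs in a cell there, and 16 of the 20 had 1. They had a median of 2644 UMIs per cell and, over the 8 neuron genes, of 24.5 UMIs, against 0 in Plvap cells of libraries 4 to 6. Igfbp3 stood at 86.8 CPM (28.2 to 203) and Snap25, a synaptic protein of neurons, at 2709 CPM (2300.5 to 3169) in them. Of the 20 cells, 11 had none of Igfbp3, Plpp1, Rgcc and Kdr, and 2 had all 4. By these genes the gate outside libraries 4 to 6 did not pick out the same kind of cell, with those 2 cells as exceptions.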

How the data were processed

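Cells of 9 mouse brain libraries (10x Genomics Chromium, version 2 chemistry) had been counted with Cell Ranger 2.2.0 on GRCm38, per the labels. From this the authors deposited whole-number UMI counts, not normalized, for 18634 genes in 29571 cells. Its columns carry a barcode and a library code, and no source used here ties a code to a sample. The annotation release is not given in the sources used here.

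UMIs were summed per class and library and divided by the class total to give CPM. Intervals are exact Poisson for CPM, Clopper-Pearson for shares and exact conditional binomial for ratios, all at 95%; UMIs were treated as independent. Calls used CPM + 50, a minimum of 10 UMIs per gene and library and a ratio of 2 in each of 3 libraries. A class at 0 was given a floor of 3 UMIs over the class. The 6 genes of the gate were left out of calls and lists. The gate, the members, the 31 gene lists and the comparison were chosen with earlier results of these data known. Named were genes drawn from the lists, with at least 20 UMIs over both classes (some list genes below that are given too, with their counts), the 15 leading genes in each direction without hormone, hemoglobin and mitochondrial genes, and the genes of the gate. Of 329 list symbols 327 were found, 3 by a RefSeq synonym, and not every listed gene is printed. Microglia and astrocytes were cells with at least 5 UMIs over 4 marker genes each, and hormone cells had at least 50% of UMIs from Gh and Prl. Plvap cells and barrier cells were left out of all of these types.

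Scrublet (scanpy 1.11.5) called 0, 6 and 0 cells in libraries 4, 5 and 6, none of them a Plvap cell and 3 of them barrier cells. This was too few for a working call, so all cells were kept and doublets were not removed. The highest UMI count was 3306 in a Plvap cell and 13511 in a barrier cell. That barrier cell was in library 6, where the 33 barrier cells held 49661 UMIs in all. Summed levels and ratios of library 6 lean on it, which the counting intervals do not cover. Cells were thinned to 500 UMIs by random draws with a fixed seed. Gene positions are from GENCODE on GRCm38 and promoters from RefSeq on GRCm38.p6. Scripts were tested on simulated data. The work used matplotlib 3.10.9, pandas 2.3.3, scipy 1.17.1 and numpy 2.4.6 under Python 3.11.15. Of the alternatives, 14 were planned and 4 were chosen after seeing the data. The 4 were equal weight of libraries, barrier cells with an endothelial gene, no cells of 5% hemoglobin and no cells of 5% hormones. The closing section gives values for some of the alternatives and a range over the others, not all of which are named there.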

Additional observations from a re-analysis of the deposited data

Results flagged for a closer look

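In libraries 4 to 6, 85 cells had Plvap but none of Flt1, Egfl7 and Esam, a signal outside the cells compared. Of them 60 had 1 Plvap UMI, and 38 had none of Igfbp3, Plpp1, Rgcc and Kdr.

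In the other 6 libraries 20 cells passed the same gate, although the comparison did not use these libraries. Of the 20 cells, 13 had at least 5 UMIs over the neuron genes, against 14 of the 129 Plvap cells.

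Library 3 held 58 cells with Plvap and no endothelial gene of the gate, of 99 such cells in the 6 libraries. They had a median of 3016.5 UMIs per cell; Snap25 was found in 53 and Syt1, a synaptic vesicle protein, in 49 of them. Igfbp3 stood at 11.0 CPM (1.33 to 39.8) there and Kdr at 11.0 CPM (1.33 to 39.8). What gives Plvap UMIs in these cells was not tested.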

How the results depend on the processing

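The gate, the calls and the list ratios were recomputed under the alternatives that bear on each; calls were not recomputed with the libraries weighted equally. With at least 2 UMIs of both Plvap and the endothelial genes 50 cells remained as members, and with at least 1000 UMIs per cell 44. At 1000 UMIs, 2 genes were called higher and 10 lower out of 192 tested, the fenestrated ratio was 11.5 and the transporter ratio 0.317. Thinned to 500 UMIs, 10 and 23 genes were called out of 349. These counts fell with the number of genes that reached the minimum. Without that minimum 73 and 101 genes were called out of 6709. Weighting the 3 libraries equally gave a transporter ratio of 0.108. Leaving out 1 library gave 39 to 118 members, 32 to 68 genes higher, 47 to 101 genes lower, a fenestrated ratio of 8.48 to 11.0 and a transporter ratio of 0.125 to 0.296. Without library 4 there were 39 members, 41 genes higher and 76 lower, and the transporter ratio was 0.125; without library 5, 68 genes were higher, and without library 6, 101 were lower. All 27 and all 35 genes kept their calls in each of these, because a call there needs 2 libraries in place of 3. Under the other alternatives, which include a pseudocount of 10 CPM, free RNA subtracted and other totals, between 21 and 33 genes were higher and between 32 and 47 lower. They were not always the same genes: the gate of at least 2 UMIs kept 15 of the 27 higher and 28 of the 35 lower calls, out of 800 genes tested, and leaving out cells with markers of another type kept 19 and 30, out of 680.

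Among the summed list ratios 3 values were counted as reversed, in the pituitary hormone and erythroid lists. Lists with a ratio near 1 could also change side and are not among these 3. The summed pituitary hormone ratio ranged from 0.520 without library 5 to 1.35 without library 4, although it was 0.447 and 0.964 within libraries 5 and 6: Plvap cells held 6901 and 28704 UMIs there and barrier cells 73006 and 49661, so the sums weight the libraries differently. It was 1.35 without cells of 5% hormones, and the erythroid ratio was 0.508 without cells of 5% hemoglobin; the cause of these was not tested. Of 467 list values under alternatives 364 moved by less than the counting interval, 100 by more and 3 reversed, and of 510 values of the leading genes 450, 60 and 0. The classes were compared as pairs of values within each library, and a test over the 3 library pairs was not run, since the libraries are not mapped to samples. Square brackets after a ratio hold its interval. Depth limits library 5 most, where the Plvap cells held 6901 UMIs.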

Other observations

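Genes of lymphatic or sinusoidal endothelium were few in both classes. The 9 genes had 37 UMIs in Plvap cells and 14 in barrier cells, a ratio of 4.44 [2.35 to 8.90]. Stab1, a scavenger receptor, had 14 against 5 UMIs and Oit3 6 against none, while Lyve1, Stab2 and Dnase1l3 had none in either class and Prox1, the factor of lymphatic identity, had 2 and 1. Genes of tip cells and proliferation had 42 against 14 UMIs (ratio 5.04 [2.70 to 10.0], with 10.3, 3.53 and 1.73 in libraries 4, 5 and 6). The largest counts in Plvap cells were those of Esm1, a VEGF-induced proteoglycan, with 14 against 6, and Apln (apelin), with 7 against 1. Top2a and Birc5 had 3 UMIs each and Cdk1 5 in Plvap cells and none in barrier cells, and Mki67 had none in either.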
